A study of Mus musculus with 38 samples.

Results

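The interaction of genotype and chronic stress was measured in the medial prefrontal cortex of mice of both sexes. It is the stress effect in mutant mice minus the stress effect in control mice, computed within males and within females and then averaged over the sexes with equal weight. All 38 of the 38 libraries of the count table entered it, 18 from males and 20 from females. Mutant mice had the genotype SSTCre:γ2f/f and control mice the genotype SSTCre, so that both carried Cre recombinase. Cre under the somatostatin promoter acts in somatostatin neurons, and the other cells of the cortex keep the conditional allele intact. The control genotype as given names no conditional allele. Carrying this allele in all cells and its recombination in somatostatin neurons therefore cannot be told apart here. Animals went through chronic variable stress (CVS) for 21 days or were left unstressed (NS), and tissue was taken 24 hours after the last stressor, per the labels' protocols. Age is not given in the sources used here. The male groups held 4 mutant CVS, 3 mutant NS, 6 control CVS and 5 control NS mice. In females there were 5 mice per group, 20 in all. Animal names begin with Y in males and with F in females, so sex and cohort cannot be told apart.

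Somatostatin neurons are inhibitory interneurons that contact the dendrites of pyramidal cells. GABA-A receptors are the chloride channels through which such inhibition acts, and the study's title speaks of GABAergic control of resilience to chronic stress. An interaction term asks whether the same stressor moved a gene differently in mutants. A positive term means that the stress effect was higher, or less negative, in mutants, and a negative term means that it was lower, or less positive.

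Levels are CPM, counts scaled to the size of the library, and differences are on the log2 scale with their standard error (SE). The total count ranged from 17644294 to 27509737 per library. Male and female libraries differed in make-up. Mitochondrial transcripts held 5.13 to 6.66% of the counts in males and 3.26 to 4.08% in females. The most abundant gene ID held 0.0451 to 0.406% in males and 4.21 to 7.83% in females. Slc17a7, the vesicular glutamate transporter of cortical pyramidal cells, was at 1720 to 2090 CPM in every library. Sst, the somatostatin peptide, was at 122 to 160 CPM in mutants and 105 to 146 CPM in controls, with an interaction of −0.03 ± 0.0674. In bulk tissue, fewer cells of a type and less RNA per cell cannot be told apart.

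Certain male libraries stood apart. The protocadherin gene Cdhr1, a marker of the olfactory bulb, reached 25 CPM in mutant NS replicate 2, 26.6 CPM in mutant NS replicate 3 and 16 CPM in control CVS replicate 1. No other library exceeded 5.35 CPM. The library labelled male mutant CVS replicate 1 had 0 counts of the predicted gene Gm12663, which was at 1.12 CPM or more in every other mutant and at 0.426 CPM or less in every control. The same library had 91.6 CPM of Ccng1, a cyclin. This was within the mutant range of 83.6 to 101 CPM and above the control range of 62.4 to 80 CPM. Pttg1 was at 16.4 to 21.6 CPM in controls and at 0.0474 to 18.7 CPM in mutants (median 0.33). Mutant libraries were thus not uniform at this gene, reaching from near 0 into the control range, and the part of this spread in the results was not tested. The counts of called genes and the medians of the leading gene lists below were also computed without the libraries that stood apart in Cdhr1 or Gm12663. The shares of genes with the same sign were computed with all libraries only.

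No gene passed for the averaged interaction. Of 17671 genes tested with edgeR's quasi-likelihood test, 0 (0%) had a Benjamini-Hochberg adjusted p under 0.05, and the smallest adjusted p was 0.917. At an unadjusted p under 0.05 there were 877 genes (4.96%), where chance alone gives 884. Of these, 498 (2.82%) were positive and 379 (2.14%) were negative. Over all genes tested, 48.8% of the terms were positive, with a median of −0.00.

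The interval of the term shows how large an interaction each gene could still have had. The SE of the interaction had a median of 0.1005 on the log2 scale. The 95% interval lay within ±0.5 for 11901 genes (67.3%) and within ±1 for 15045 genes (85.1%). For those genes an interaction past these sizes was outside the interval. For the remainder the interval reached past these sizes, so that a larger interaction was not excluded.

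Either sex alone gave no call. In males 0 of 17671 genes (0%) passed and 804 (4.55%) had an unadjusted p under 0.05. In females 0 passed (0%) and 674 (3.81%) had an unadjusted p under 0.05. The male interaction minus the female one gave 0 genes (0%), with 571 (3.23%) at an unadjusted p under 0.05. DESeq2 and limma voom called 0 genes in these 4 comparisons.

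Without the 3 libraries high in Cdhr1, which leaves 1 male mutant NS library that is assumed to vary like the other groups, 3 genes passed in the averaged interaction, 6 in males and 3 in the sex difference. The averaged calls were Atp6v0c-ps2 (−2.19), Atp6v0c (0.285) and Rnps1 (0.24), and they were named after their values were seen. The only male mutant NS library left in this fit, replicate 1, stood apart from nearly all other libraries at these genes, as given under the other observations. Without the library labelled male mutant CVS replicate 1 no gene passed in any of these comparisons.

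The genes named next had the smallest p values among genes with a symbol, leaving out predicted genes (Gm and a number, or Rik), and none of them passed. On the positive side, Fjx1 (ENSMUSG00000075012), a secreted inhibitor of dendrite growth, was at 67.5, 80.9, 80 and 71.2 CPM in male mutant CVS and 67.5, 78.5 and 68.5 CPM in male mutant NS mice. In male controls it was at 67.7 to 81.2 CPM under CVS (median 71.1, n = 6) and at 80.7, 82.1, 79.5, 83.1 and 89.4 CPM in NS mice. All NS controls were higher than all CVS controls except CVS replicate 1, while the groups of mutants overlapped.

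In females Fjx1 was at 107, 105, 95.4, 92.1 and 86.7 CPM in mutant CVS and 89.7, 88.1, 80.8, 81.3 and 88 CPM in mutant NS females. Control females had 98.1, 85.2, 87.2, 98.1 and 97.2 CPM under CVS and 98, 100, 100, 89.8 and 87.9 CPM in NS mice. All stressed mutant females except replicate 5 were above every unstressed one, and the control groups overlapped. The interaction was 0.24 ± 0.0606 (95% interval 0.12 to 0.36, adjusted p = 0.917), made up of 0.13 ± 0.0456 in mutants and −0.11 ± 0.0399 in controls.

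Rps26 (ENSMUSG00000025362), a protein of the small ribosomal subunit, had an interaction of 0.22 ± 0.0556 (adjusted p = 0.917). In males it averaged 108.6 ± 6.72 CPM in mutant CVS, 93.5 ± 5.62 CPM in mutant NS, 93.3 ± 8.65 CPM in control CVS and 100.3 ± 4.97 CPM in control NS mice (SD, n = 4, 3, 6 and 5). The 4 male mutant CVS libraries, at 101 to 117 CPM, were all above the 3 male mutant NS libraries, at 87.2 to 98 CPM. By sex the term was 0.32 ± 0.0817 in males and 0.11 ± 0.0755 in females. Ribosomal protein genes have near-identical copies in the genome, so counts of Rps26 and Rpsa are uncertain.

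Tubb2b, a β-tubulin of developing and adult neurons, had an interaction of 0.20 ± 0.0535, with 0.20 ± 0.0788 in males and 0.20 ± 0.0725 in females. Male mutants were at 84.2, 84.5, 80.2 and 87.7 CPM under CVS and at 80.6, 83.5 and 81.8 CPM without stress, so that they overlapped. Male controls were at 70.8 to 79.9 CPM under CVS (median 75, n = 6) and at 84.1, 79.8, 82.3, 88.4 and 84 CPM without stress, where only stressed replicate 1 and unstressed replicate 2 met. Prr7, a synaptic proline-rich membrane protein, had 0.21 ± 0.0586, with 0.19 ± 0.0869 in males and 0.24 ± 0.0785 in females.

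The remaining positive genes of the naming rule were Zfp503, a zinc finger repressor (0.73 ± 0.203), Ctss, the microglial protease cathepsin S (0.24 ± 0.0666), and Rpsa, a ribosomal protein (0.20 ± 0.0575). Psmb4, a proteasome subunit, had 0.16 ± 0.0448, Agfg2 had 0.18 ± 0.0521 and Tmem39b had 0.38 ± 0.113. For these 6 genes the term was positive in both sexes, as the choice by the average favours. Zfp503 had 1.15 ± 0.306 in males and 0.31 ± 0.267 in females.

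On the negative side the smallest p belonged to Map3k7 (ENSMUSG00000028284), the kinase TAK1 of inflammatory and TGF-β signalling. Male mutants were at 56.4, 49.9, 48.8 and 55.1 CPM under CVS and at 58.4, 53.5 and 59.9 CPM without stress. Male controls were at 53.5 to 59 CPM under CVS (median 55.2, n = 6) and at 57, 48.8, 54.1, 49.4 and 52.8 CPM without stress. The groups overlapped in males of both genotypes.

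In female mutants the Map3k7 groups were separate, with 47.8, 50.9, 48.2, 49.8 and 51 CPM under CVS and 55.2, 57.5, 59, 53.5 and 53.2 CPM without stress. Female controls overlapped, with 54.2, 57.7, 53, 51.1 and 54.7 CPM under CVS and 53.2, 53.3, 51.5, 52.4 and 55.9 CPM without stress. The interaction was −0.20 ± 0.0502 (95% interval −0.30 to −0.10, adjusted p = 0.917), from −0.15 ± 0.0376 in mutants and 0.05 ± 0.0332 in controls. The term was −0.20 ± 0.0737 in males and −0.19 ± 0.0682 in females.

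Nodal (ENSMUSG00000037171), a ligand of the TGF-β family, is a low-count gene with an interaction of −1.32 ± 0.377 (adjusted p = 0.917). Male mutants had 0.446, 0.402, 0.356 and 0.813 CPM under CVS and 0.772, 0.663 and 0.453 CPM without stress. Male controls had 0.427 to 0.851 CPM under CVS (median 0.744, n = 6) and 0.537, 0.285, 0.267, 0.194 and 0.288 CPM without stress. Stressed and unstressed male controls overlapped at 1 NS library, replicate 1, and the mutant groups overlapped widely.

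In females Nodal was at 0.458, 0.383, 0.333, 0.377 and 0.313 CPM in mutant CVS and 0.495, 0.165, 0.483, 0.495 and 0.789 CPM in mutant NS mice. Control females had 1.17, 0.659, 0.658, 0.661 and 0.419 CPM under CVS and 0.372, 0.213, 0.47, 0.262 and 0.692 CPM without stress. The groups overlapped in both genotypes. The stress effect was −0.36 ± 0.282 in mutants and 0.96 ± 0.25 in controls.

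Cdhr1 had an interaction of −1.88 ± 0.508 (adjusted p = 0.917), −3.09 ± 0.719 in males and −0.68 ± 0.719 in females. Male mutants were at 3.77, 3.44, 4.04 and 3.73 CPM under CVS and at 2.37, 25 and 26.6 CPM without stress. Without the 3 high libraries the averaged interaction was 0.00. As these libraries were chosen by their Cdhr1 level, that value follows from the choice and is no separate evidence. Nudt8, a hydrolase of the nudix family below 1 CPM in every library, had −2.01 ± 0.588, with −2.38 ± 0.836 in males and −1.65 ± 0.826 in females.

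Mob3c, a kinase activator of the MOB family, had −0.64 ± 0.19, and Nars2, the mitochondrial asparaginyl-tRNA synthetase, had −0.35 ± 0.104. Zc2hc1a had −0.17 ± 0.0502, Pheta2, an adaptor of endosomal trafficking, −1.41 ± 0.438, Samd12 −0.19 ± 0.0591 and Tma16 −0.34 ± 0.108. All 20 genes of the averaged comparison named here had an adjusted p of 0.917. They were chosen by small p, a choice that favours large terms.

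**Figure D1:**
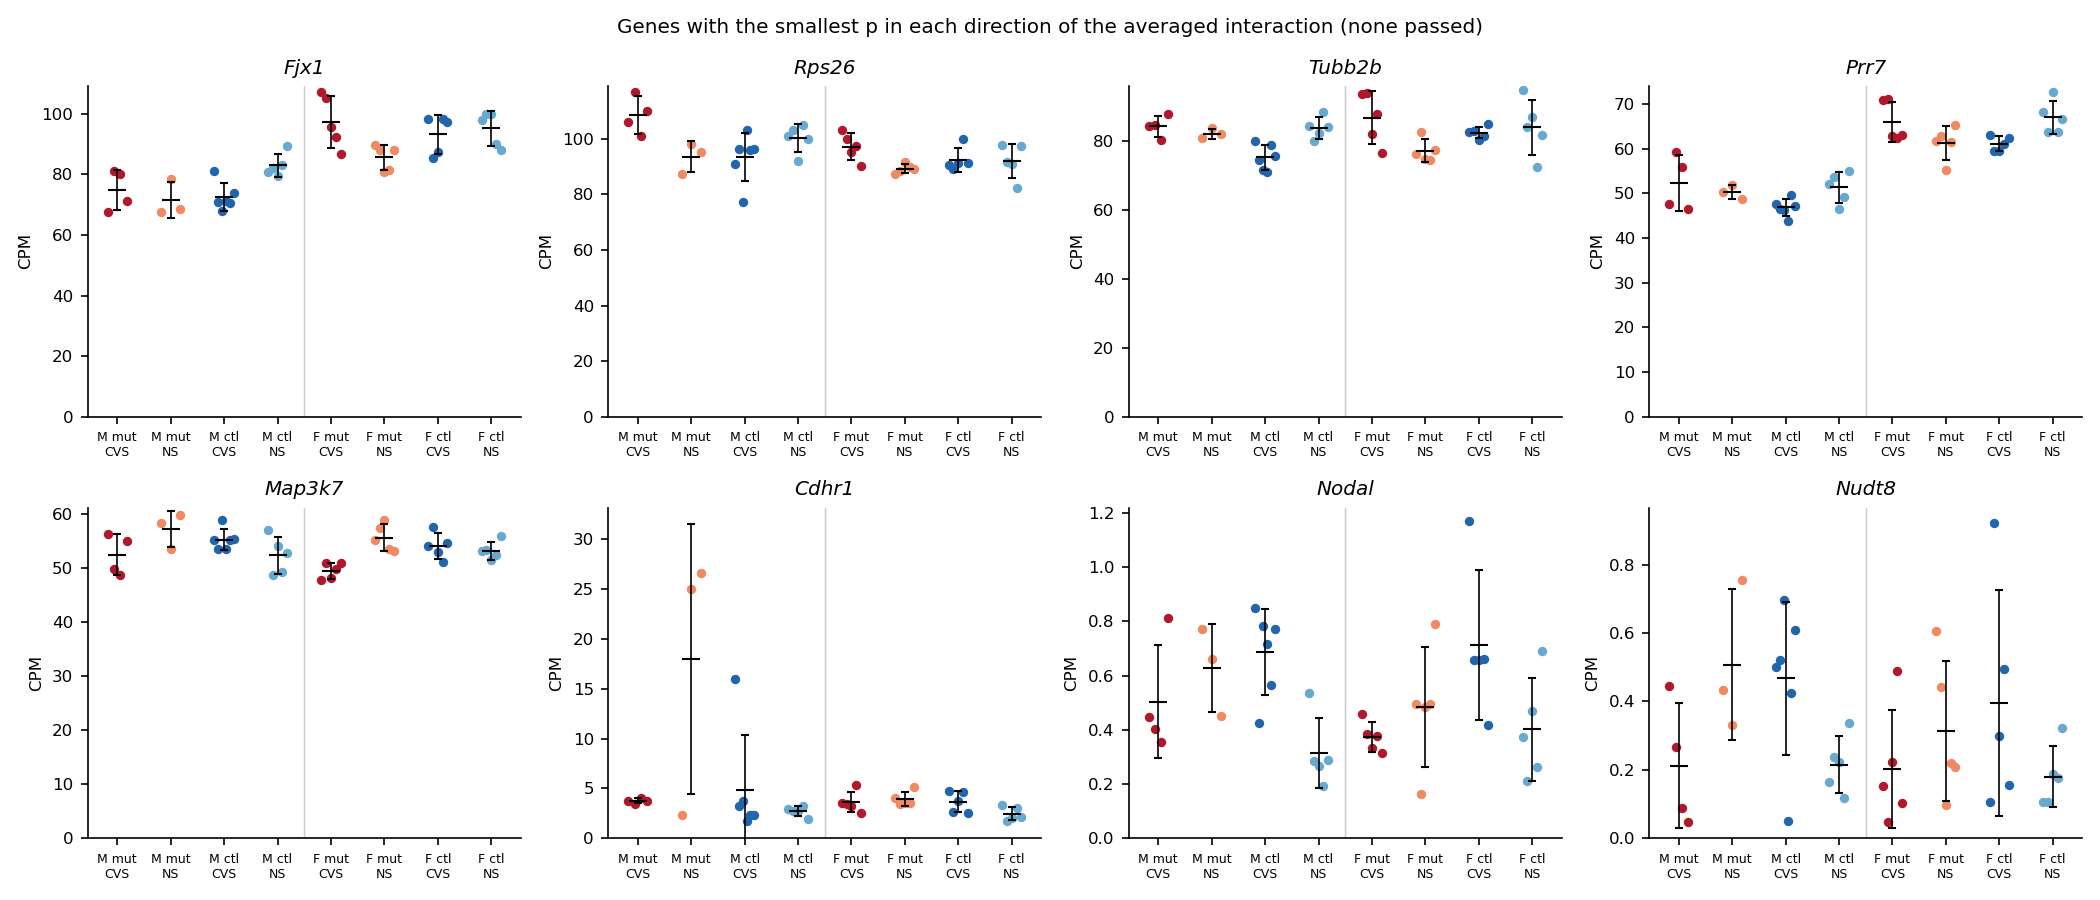
CPM (y axis, from 0) in each of the 38 libraries for the 4 positive (top row) and 4 negative (bottom row) genes with the smallest p in the averaged interaction, predicted genes and IDs without a symbol left out; points are libraries, bars are mean ± SD, M and F are the sexes, mut and ctl the genotypes, and an SD that reaches below 0 is cut at the axis. For Fjx1 and Tubb2b most male control NS libraries lie above the male control CVS libraries, for Map3k7 the female mutant CVS libraries are low, and for Cdhr1 the male mutant NS mean is carried by 2 libraries at 25 and 26.6 CPM.

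Within males, the smallest p values of genes named by the same rule belonged, on the positive side, to Atp5g3, a subunit of the mitochondrial ATP synthase (0.27 ± 0.0684), Rps26 (0.32 ± 0.0817) and Saxo2, a microtubule-associated protein (0.96 ± 0.247). On the negative side they belonged to Cdhr1, the pseudogene Atp6v0c-ps2 (−6.22 ± 1.47) and Zc2hc1a (−0.29 ± 0.0736). The adjusted p of these 6 genes was 0.432. Atp6v0c-ps2 was high only in male mutant NS replicate 1 and male control CVS replicate 1, as given under the other observations. In females Atp5g3 had 0.02 ± 0.0623 and Saxo2 had 0.09 ± 0.228.

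Within females, the genes named by this rule were Dmrta2, a transcription factor of cortical development (0.80 ± 0.212), Ddt, D-dopachrome tautomerase (0.59 ± 0.17), and Thbs4, a thrombospondin (1.53 ± 0.457), on the positive side. On the negative side they were Coq3, an enzyme of ubiquinone synthesis (−0.41 ± 0.116), Khnyn (−0.34 ± 0.0976) and Pheta2 (−2.05 ± 0.61). Ddt had −0.41 ± 0.187 in males and 0.59 ± 0.17 in females, and its sex difference (male minus female) of −1.01 ± 0.252 had the smallest p of the sex comparison without passing.

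Male and female interactions share no library, so that the sign of genes picked in one sex can be read in the other. Of the 804 genes at an unadjusted p under 0.05 in males, 444 (55.2%) had the same sign in females, with a median of 0.0188 in the male direction against a median size of 0.348 in males. Of the 674 picked in females, 412 (61.1%) had the same sign in males, with a median of 0.0489 against 0.4. Over all genes, Pearson's r was 0.0338 and Spearman's rho 0.0709, as a description over genes that share libraries and are not independent.

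The interaction is made of 2 stress effects, and neither gave a call over both sexes. In mutants 0 genes (0%) passed, 1063 (6.02%) had an unadjusted p under 0.05 and the smallest adjusted p was 0.707. In controls 0 genes (0%) passed, 1557 (8.81%) had an unadjusted p under 0.05 and the smallest adjusted p was 0.163, and DESeq2 called 16 genes there. Without the 3 libraries high in Cdhr1, 6 genes passed for stress in mutants.

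Among the genes with the smallest p for stress in controls, Htra1, a secreted serine protease, had −0.10 ± 0.0418 in mutants and −0.18 ± 0.0367 in controls. Dio2, the enzyme that activates thyroid hormone, had −0.16 ± 0.0647 in mutants and −0.28 ± 0.0568 in controls. Aqp4, the water channel of astrocyte endfeet, had −0.13 ± 0.0622 in mutants and −0.25 ± 0.0546 in controls, and its interaction was 0.12 ± 0.0829. Wwtr1, the transcriptional coactivator TAZ, had 0.02 ± 0.0665 in mutants and −0.27 ± 0.0588 in controls. These genes were picked in controls, where their size is favoured by the choice.

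Picked in mutants, Lox, an enzyme that cross-links collagen, had −1.46 ± 0.329 in mutants and −0.50 ± 0.282 in controls. Rgma, a repulsive guidance molecule, had 0.19 ± 0.0443 in mutants and 0.05 ± 0.039 in controls. Map3k7 and Rps26 were among the 4 smallest p values of this comparison too, and their control values had the other sign.

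Averaged over both genotypes and sexes, stress changed 3 genes (0.017% of 17671), each with an adjusted p of 0.0406. Dbp, a clock-controlled transcription factor, rose by 0.35 ± 0.0628, with 0.36 ± 0.0945 in mutants and 0.33 ± 0.0826 in controls, and its interaction was 0.03 ± 0.125 (95% interval −0.23 to 0.28). Dbp averaged 99.8 ± 6.38 CPM in male mutant CVS against 71.1 ± 9.27 CPM in male mutant NS mice (SD, n = 4 and 3), and 107.2 ± 13.2 CPM in male control CVS against 75.8 ± 17.1 CPM in male control NS mice (n = 6 and 5). In females it averaged 111.5 ± 15.3 against 94.98 ± 14.3 CPM in mutants and 113.1 ± 5.88 against 100.8 ± 6.23 CPM in controls (CVS against NS, n = 5 each).

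Colq, the collagen tail that anchors acetylcholinesterase, changed by −0.72 ± 0.139. Female mutants were at 1.73, 0.958, 1.39, 0.829 and 1.41 CPM under CVS and at 1.54, 3.14, 1.98, 2.26 and 1.12 CPM without stress. Female controls were at 0.64, 1.49, 0.717, 1.45 and 1.1 CPM under CVS and at 1.49, 2.13, 2.16, 1.75 and 1.8 CPM without stress. The CVS libraries were the lower ones in both genotypes, with overlap in mutants, while control groups met at 1.49 CPM. The interaction of Colq was 0.14 ± 0.279 (95% interval −0.42 to 0.70), and that of Htra1, which changed by −0.14 ± 0.0278, was 0.07 ± 0.0557 (−0.04 to 0.18). These intervals hold 0 and are wide for Colq, so that equal responses were not shown.

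Whether the stress response of controls was kept in mutants was also read over all genes, from effects that share no library. Of the 1063 genes at an unadjusted p under 0.05 for stress in mutants, 658 (61.9%) had the same sign in controls, with a median of 0.0192 in the mutant direction against a median size of 0.149 in mutants. Of the 1557 picked in controls, 980 (62.9%) had the same sign in mutants, with a median of 0.0222 against 0.155. Genes picked by small p have inflated sizes, so that a smaller median in the other genotype is no measure of blunting.

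Within a sex this reading differed. Of the 1438 genes (8.14% of those tested) picked for stress in female controls, 1036 (72%) had the same sign in female mutants, and of the 1291 (7.31%) picked in female mutants, 957 (74.1%) had it in female controls. Of the 1393 genes (7.88%) picked in male controls, 757 (54.3%) had the same sign in male mutants, and of the 627 (3.55%) picked in male mutants, 315 (50.2%) had it in male controls. Between sexes, 614 (44.1%) of the genes of male controls kept their sign in female mutants and 771 (55.3%) in female controls. The male groups include the 4 libraries set apart above, and their part in the lower male shares was not tested. The difference between these shares was not tested.

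**Figure D2:**
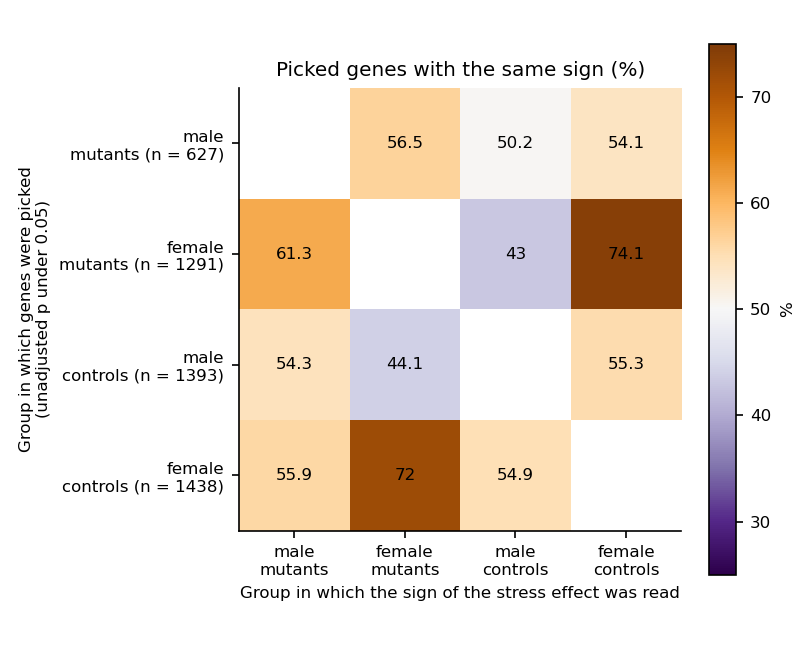
Percent of genes picked for the stress effect in 1 group (rows, unadjusted p under 0.05, n genes) whose stress effect had the same sign in another group (columns); white marks 50%, orange a higher and violet a lower share, and no 2 groups share a library. The female mutant and female control cells hold the highest shares, 74.1% and 72%, and the male mutant and male control cells hold 50.2% and 54.3%.

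Immediate early genes are transcribed within minutes of neuronal activity, and their products include transcription factors and synaptic proteins. Many carry cAMP response elements near the transcription start. All 38 listed genes were tested. In the averaged interaction 36 of the 38 had a positive term, with a median of 0.32 against −0.00 over all genes, and 13 had an unadjusted p under 0.05, all positive, against 2.82% of all genes. None of the 38 passed over all genes.

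To show a regulatory sequence that many, though not all, of these genes carry, the 250 bases before the transcription start are given for 3 members that hold it. They are from RefSeq, GRCm38.p6, written 5′ to 3′ on the gene's strand. Capitals mark TGACG or its reverse complement CGTCA, the core of the cAMP response element, searched on both strands with overlapping matches counted. Fos lies at chr12:85473640-85473889 on the plus strand and held 2 matches, Npas4 at chr19:4989972-4990221 on the minus strand held 2, and Nr4a1 at chr15:101266596-101266845 on the plus strand held 4.
Fos: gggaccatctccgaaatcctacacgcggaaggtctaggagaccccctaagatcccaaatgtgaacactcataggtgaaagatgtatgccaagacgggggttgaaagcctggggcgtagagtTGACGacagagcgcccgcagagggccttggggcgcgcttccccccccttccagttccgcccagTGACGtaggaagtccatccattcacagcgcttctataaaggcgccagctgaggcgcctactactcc
Npas4: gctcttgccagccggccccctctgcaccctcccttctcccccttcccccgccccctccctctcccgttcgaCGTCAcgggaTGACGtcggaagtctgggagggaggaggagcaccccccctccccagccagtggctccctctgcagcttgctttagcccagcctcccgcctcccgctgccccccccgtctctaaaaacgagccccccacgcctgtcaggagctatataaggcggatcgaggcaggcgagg
Nr4a1: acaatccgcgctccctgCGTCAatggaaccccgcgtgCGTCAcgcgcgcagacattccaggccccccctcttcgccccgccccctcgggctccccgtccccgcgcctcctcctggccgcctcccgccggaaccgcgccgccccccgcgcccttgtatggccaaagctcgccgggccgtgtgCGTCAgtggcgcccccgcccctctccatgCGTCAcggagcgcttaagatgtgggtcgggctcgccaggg
Of the 29 list members found in the promoter table, 20 (69%) held a match within these 250 bases, against 19.8% of the 27025 genes of the table. A match is a string of letters and no evidence that a factor bound there.

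The 2 stress effects behind these terms differed in their counts. For stress in mutants 27 were positive, against 50.4% of all genes, with a median of 0.05. An unadjusted p under 0.05 in the positive direction was reached by 3, against 3.25% of all genes in that direction. For stress in controls 35 of the 38 were negative and 3 positive, against 51.7% positive over all genes, with a median of −0.26, and 16 had an unadjusted p under 0.05 in that direction, against 4.2% of all genes. By sex, 37 were positive in males (median 0.31) and 34 in females (median 0.29), against 48.6% and 49.9% of all genes. The difference between the sexes was positive for 20 and negative for 18 members, against 49.6% positive over all genes.

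Among the transcription factors, Egr2 had an interaction of 1.10 ± 0.424 (95% interval 0.24 to 1.97, adjusted p = 0.931). Male mutants were at 3.72, 9.65, 9.16 and 3.97 CPM under CVS and at 4.05, 11 and 2.87 CPM without stress, and male controls at 4.53 to 10.8 CPM under CVS (median 6.64, n = 6) and at 7.88, 18.4, 23.3, 5.71 and 21.3 CPM without stress. Unstressed male control replicates 2, 3 and 5 were above every stressed male control, and the other 2 were within their range.

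In females Egr2 was at 12.3, 7.33, 10.9, 11.5 and 14.2 CPM in mutant CVS and 2.37, 7.56, 9.8, 9.57 and 9.47 CPM in mutant NS mice. Control females had 8.05, 4, 10.2, 7.51 and 6.02 CPM under CVS and 9.95, 6.06, 12.8, 8.87 and 11.1 CPM without stress. Stressed mutants were the higher group in mutants and unstressed controls the higher group in controls, with overlap in both.

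Fos, the partner of Jun in the AP-1 factor, had an interaction of 0.53 ± 0.345 (95% interval −0.17 to 1.24, adjusted p = 0.931). Male mutants were at 12, 23.1, 18.5 and 11.7 CPM under CVS and at 10.8, 32.1 and 8.05 CPM without stress. Male controls were at 8.51 to 29.4 CPM under CVS (median 23.6, n = 6) and at 24.6, 47.4, 46.3, 21.4 and 39 CPM without stress. As for Egr2, replicates 2, 3 and 5 of the unstressed male controls exceeded all stressed male controls.

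Female mutants had 28.9, 23.1, 31.8, 33.1 and 35.1 CPM of Fos under CVS and 9.02, 28, 28.6, 32.6 and 24.1 CPM without stress. Female controls had 24.1, 18.2, 24.5, 17.3 and 22.2 CPM under CVS and 23.9, 18.3, 27.7, 26.1 and 15.7 CPM without stress. The groups overlapped in both genotypes. Npas4, a neuron-specific activity-dependent factor, had 0.70 ± 0.441 in males and −0.30 ± 0.416 in females, an average of 0.20 ± 0.303.

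Other transcription factors of the list were Egr1 (0.42 ± 0.19), Egr4 (0.42 ± 0.176), Nr4a1 (0.36 ± 0.26), Nr4a2 (0.42 ± 0.21) and Junb (0.39 ± 0.269). Jun had −0.02 ± 0.121 and Maff had −0.12 ± 0.307, and these were the 2 members with a negative term. The dual-specificity phosphatases, which switch off MAP kinases, were positive throughout: Dusp14 (0.24 ± 0.0822), Dusp4 (0.56 ± 0.216), Dusp5 (0.46 ± 0.208), Dusp6 (0.36 ± 0.166) and Dusp1 (0.24 ± 0.299). Tiparp, a poly(ADP-ribose) polymerase, had 0.35 ± 0.135. Of the effector genes, Arc, a regulator of glutamate receptor uptake, had 0.47 ± 0.43, and Bdnf, the brain-derived neurotrophic factor, had 0.17 ± 0.124.

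**Figure D3:**
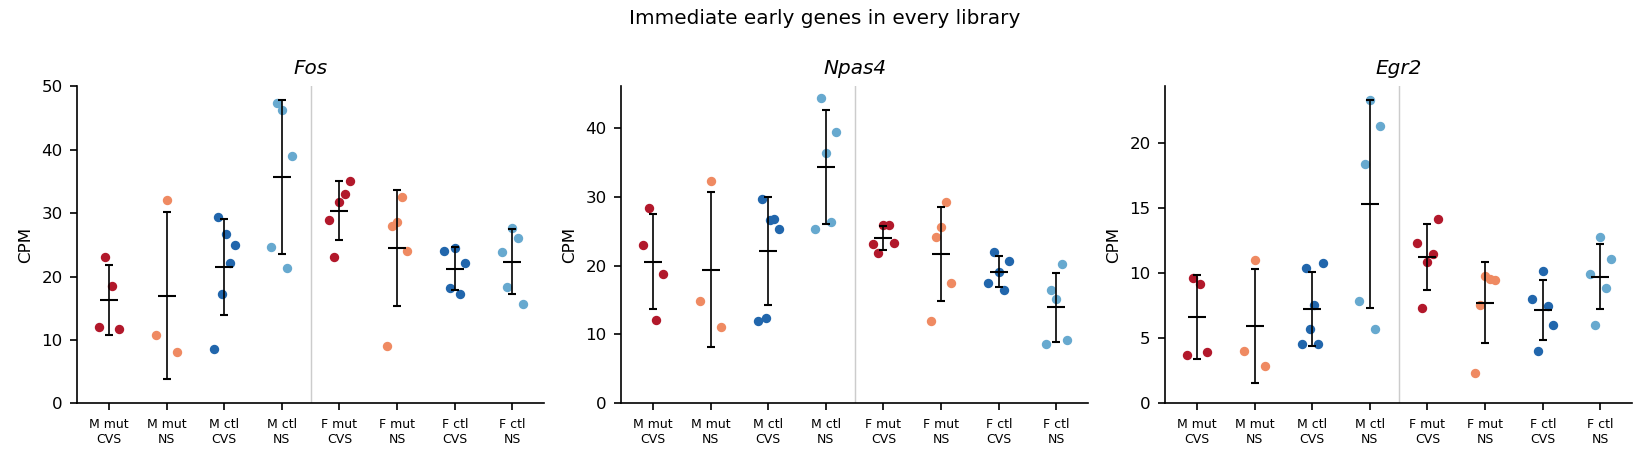
CPM (y axis, from 0) of Fos, Npas4 and Egr2 in each of the 38 libraries by sex (M, F), genotype (mut, ctl) and stress; points are libraries and bars are mean ± SD. The unstressed male controls have the highest mean for all 3 genes, with Fos at 21.4 to 47.4 CPM, and their points overlap those of other groups.

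The summed CPM of the 38 immediate early genes shows the same groups. Males had medians of 2080 CPM in mutant CVS (1895 to 2274), 1897 in mutant NS (1747 to 2723), 2357 in control CVS (2046 to 2666) and 3372 in control NS mice (1999 to 3514). Females had medians of 2731 CPM in mutant CVS (2219 to 2934), 2669 in mutant NS (1821 to 2810), 2331 in control CVS (2255 to 2590) and 2595 in control NS mice (2415 to 2892). The male control NS group had the highest median and overlapped the other male groups.

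The count of positive members was 36 or 37 without any 1 library and under every other setting. Without 1 library the median ran from 0.24, without male mutant NS replicate 3, to 0.46, without male mutant NS replicate 2. Female mutant NS replicate 1 had the lowest summed CPM of its group, 1821, and without this library the median was 0.26. Without the 3 libraries high in Cdhr1 the median was 0.41, and without the library labelled male mutant CVS replicate 1 it was 0.35. None of the 38 genes passed in any of these fits. The members vary together from animal to animal, so the count is no number of independent observations.

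Genes of cytosolic ribosomal proteins, the building blocks of the ribosome, had mostly small positive terms. Of 79 tested members 73 were positive, against 48.8% of all genes, with a median of 0.07. An unadjusted p under 0.05 was reached by 15, all positive, against 2.82% of all genes. The stress effect was positive for 76 of 79 in mutants, against 50.4% of all genes (median 0.09), and for 48 of 79 in controls, against 51.7% of all genes (median 0.01). In the positive direction, 35 had an unadjusted p under 0.05 in mutants, against 3.25% of all genes, and 2 in controls, against 4.61%. Rps28 had 0.36 ± 0.118 and Rpl13 had 0.13 ± 0.0465 in the interaction, beside Rps26 and Rpsa above. No member passed, and near-identical copies make these counts uncertain.

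By sex the ribosomal median was 0.10 in males (71 of 79 positive) and 0.06 in females (64 of 79 positive). Stress in male controls was positive for 13 members (median −0.04, against 51.8% positive over all genes), while stress in female controls was positive for 72 (median 0.06, against 50.2%). Without male mutant NS replicate 1 the averaged median was 0.05 with 67 positive, without male control CVS replicate 3 it was 0.05 with 70 positive, without male mutant NS replicate 2 it was 0.11 with 77 positive, and without the 3 libraries high in Cdhr1 it was 0.12 with 77 positive.

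Nuclear-encoded genes of oxidative phosphorylation, which form the respiratory chain and ATP synthase, gave 65 positive terms of 75, against 48.8% of all genes, with a median of 0.06. An unadjusted p under 0.05 was reached by 12, all positive, against 2.82% of all genes. Ndufs7 (0.17 ± 0.0523) and Ndufb7 (0.17 ± 0.0537) belong to complex I, Cox5a (0.13 ± 0.0509) to complex IV and Atp5g3 (0.15 ± 0.0462) to the ATP synthase. In females alone Ndufs7 had 0.16 ± 0.0706, Ndufb7 0.03 ± 0.0726, Cox5a 0.07 ± 0.0685 and Atp5g3 0.02 ± 0.0623. The stress effect was positive for 70 of 75 in mutants, against 50.4% of all genes (median 0.05), and for 25 of 75 in controls, against 51.7% (median −0.02). The averaged median was 0.04 without male mutant NS replicate 1, 0.10 without replicate 2 and 0.11 without the 3 libraries high in Cdhr1.

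The 13 proteins encoded by the mitochondrial genome had 12 positive terms, against 48.8% of all genes, and a median of 0.06. None had an unadjusted p under 0.05, against 4.96% of all genes, a share that is small for so short a list. This median was 0.03 without the 3 libraries high in Cdhr1. The 31 proteasome subunits had 18 positive terms and a median of 0.01.

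**Figure D4:**
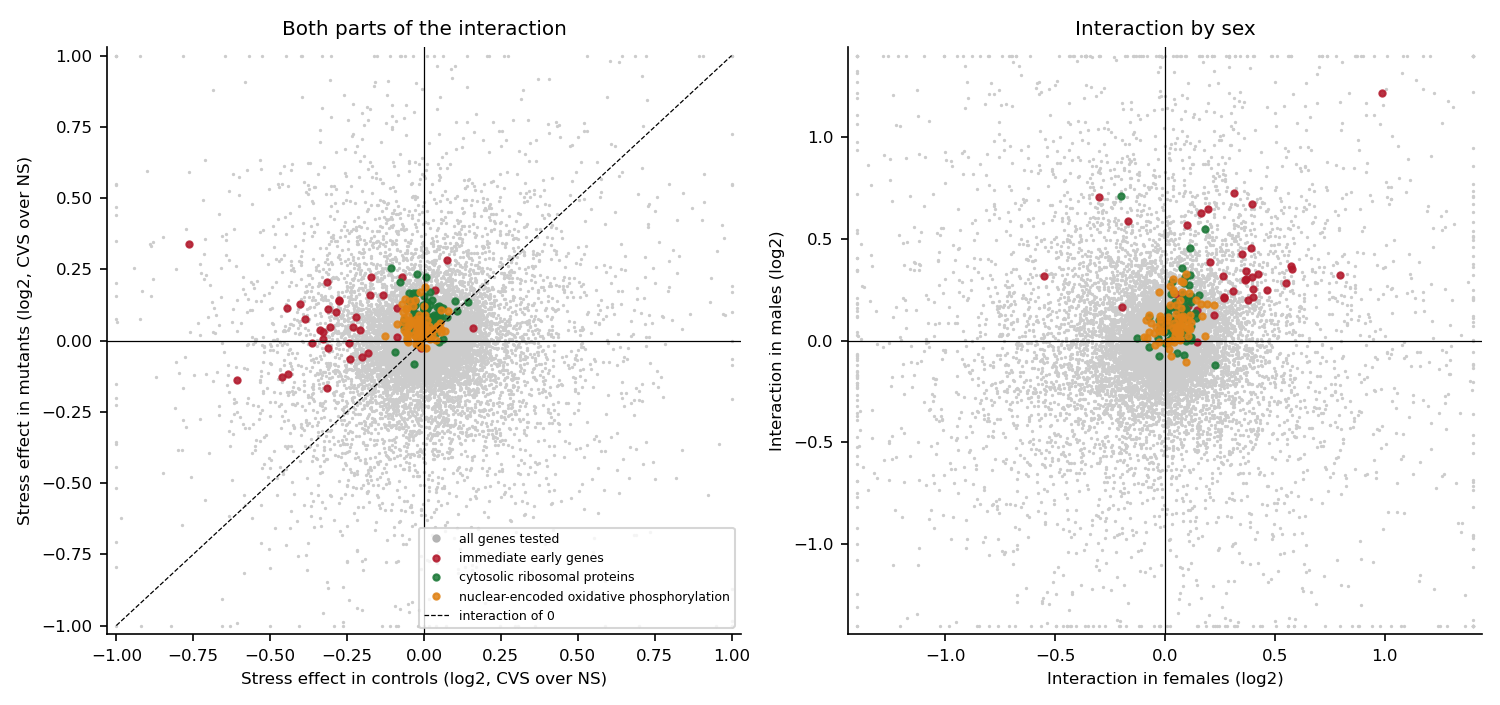
Each point is 1 of 17671 genes, with 3 gene lists in colour. Left, log2 stress effect (CVS over NS) in mutants (y axis) against controls (x axis), averaged over the sexes, where distance above the dashed line is a positive interaction; right, log2 interaction in males (y axis) against females (x axis); values past the axis limits are drawn at the limit. Immediate early genes have medians of 0.05 in mutants and −0.26 in controls, and ribosomal and oxidative phosphorylation genes lie close to 0 with small positive interactions.

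GABA-A receptor subunits form chloride channels opened by GABA. Of 14 tested members 11 were negative and 3 positive, with a median of −0.05, against 48.8% positive over all genes. An unadjusted p under 0.05 was reached by 1 of the 14, near the 4.96% of all genes. This was Gabra4, a subunit of extrasynaptic receptors, at −0.12 ± 0.0581, with −0.25 ± 0.0854 in males and 0.00 ± 0.0787 in females. Gabrg3, a further subunit, had −0.11 ± 0.0591, and Gabra3 had −0.06 ± 0.0389. In females 7 of the 14 were negative.

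Other genes of inhibitory synapses gave 7 positive and 9 negative terms (median −0.00), with Slc32a1, the vesicular GABA transporter, at 0.09 ± 0.0519 and Gad1, which makes GABA, at −0.04 ± 0.0598. Glutamate receptors and excitatory synapse genes gave 16 positive terms of 30 (median 0.01). Lrrtm1, a postsynaptic adhesion protein, had 0.18 ± 0.0624, and Shank3, a scaffold of the postsynaptic density, had 0.13 ± 0.046. Presynaptic vesicle genes gave 8 positive terms of 26 (median −0.02), where 48.8% of all genes were positive.

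Glucocorticoid-responsive genes, induced by the stress hormone corticosterone through its nuclear receptor, were evenly split, with 13 positive and 13 negative terms and a median of 0.01. Fkbp5, a chaperone that restrains the receptor, had −0.19 ± 0.139 and Sgk1, a kinase, −0.13 ± 0.118. Zbtb16, a zinc finger factor, had −0.20 ± 0.0745 (adjusted p = 0.917), with −0.04 ± 0.056 for stress in mutants and 0.16 ± 0.0492 in controls. Hif3a had −0.82 ± 0.341, Sult1a1 −0.40 ± 0.17, and Mt1, a metallothionein, 0.26 ± 0.113.

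Stress neuropeptides and monoamine receptors had 22 positive terms of 32, against 48.8% of all genes, and a median of 0.04. Crh, the corticotropin-releasing hormone, which cortical interneurons make, had 0.49 ± 0.172 (95% interval 0.15 to 0.84, adjusted p = 0.917), with 0.52 ± 0.255 in males and 0.46 ± 0.231 in females. It averaged 4.89 ± 1.05 CPM in male mutant CVS, 4.26 ± 0.547 in male mutant NS, 4.77 ± 0.577 in male control CVS and 5.98 ± 1.83 in male control NS mice. In females it averaged 6.14 ± 0.99 CPM in mutant CVS, 5.45 ± 1.45 in mutant NS, 4.76 ± 0.671 in control CVS and 5.79 ± 0.453 in control NS mice (SD, n = 5 each). Adra2a, an adrenergic receptor, had 0.25 ± 0.115 and Htr1a, a serotonin receptor, −0.19 ± 0.0915.

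Clock genes had 14 positive terms of 19 and a median of 0.06, where 48.8% of all genes were positive, the share for every list in this paragraph. Bhlhe40, a repressor that activity also induces, had 0.34 ± 0.136, Per1 0.29 ± 0.139, Cry1 0.18 ± 0.075 and Per3 −0.15 ± 0.0752. Genes of the unfolded protein response had 16 positive terms of 19 (median 0.06), with Atf4 at 0.18 ± 0.112, and heat shock proteins had 8 of 17 (median −0.01). Inflammatory genes had 12 positive terms of 13 tested (median 0.11). Among them B2m, the light chain of MHC class I, had 0.13 ± 0.06 and Icam1, an adhesion molecule, 0.55 ± 0.264, while the chemokine Cxcl10 stayed below 1 CPM and its fitted term, 3.21 ± 1.15, rests on few counts. Myelin genes had 13 positive terms of 20 (median 0.03).

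**Figure D5:**
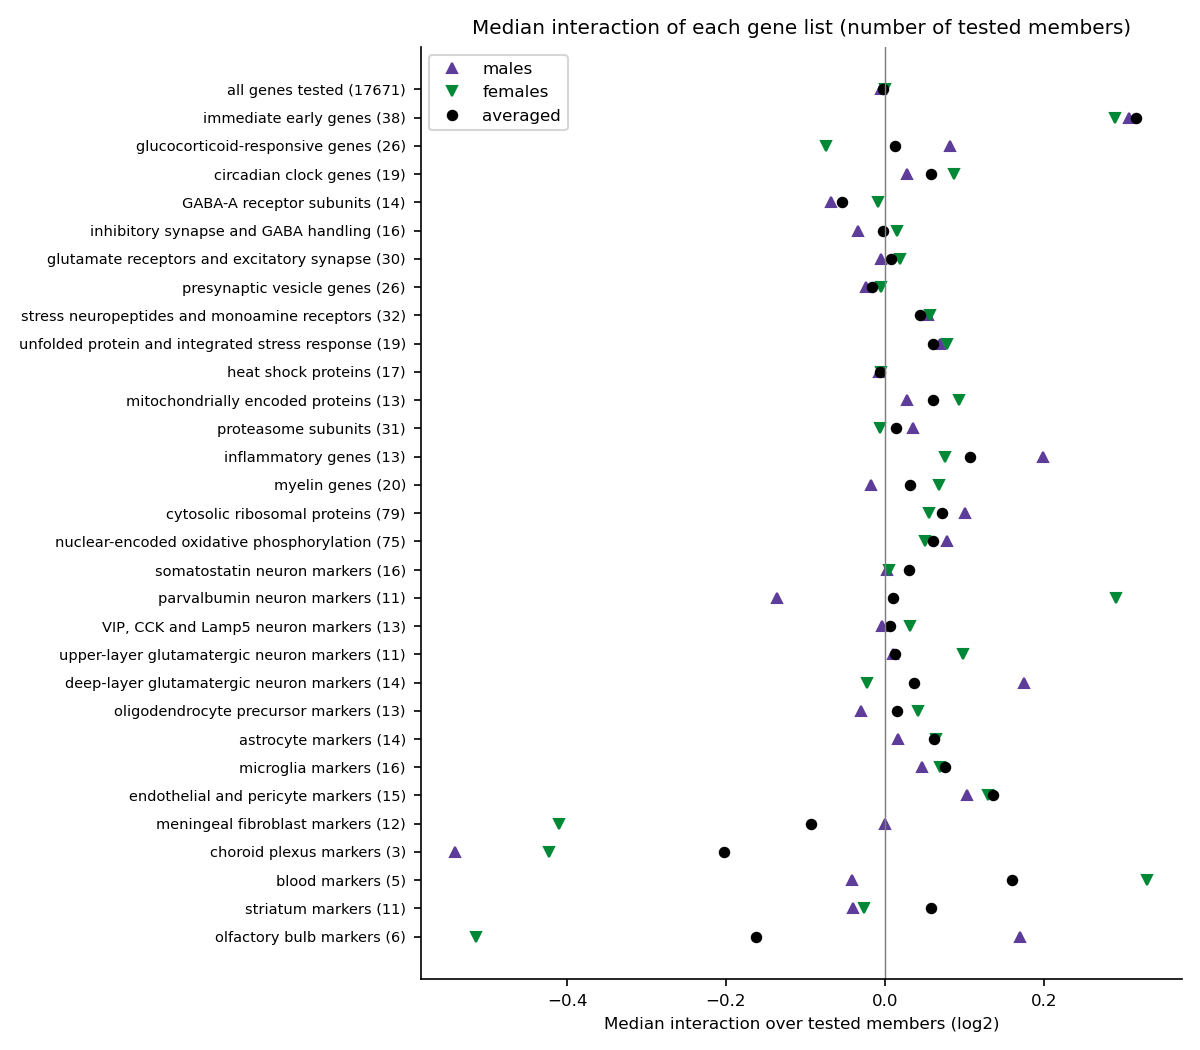
Median log2 interaction (x axis) over the tested members of each of the 30 gene lists and over all genes (top), with the number of tested members in parentheses; circles are the average over the sexes, upward triangles males and downward triangles females. The immediate early genes stand at 0.32, 0.31 and 0.29, and the male and female medians of the meningeal fibroblast markers are 0.00 and −0.41.

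Cell markers were read beside these lists. Astrocyte markers had 13 positive terms of 14 (median 0.06) and endothelial and pericyte markers 12 of 15 (median 0.14), against 48.8% of all genes. There were 0 at an unadjusted p under 0.05 in either list, against 4.96% of all genes. The summed endothelial and pericyte CPM ranged from 473.6 to 562.2 in male mutant CVS, 483 to 565.6 in mutant NS, 477.6 to 561.6 in control CVS and 511.9 to 637 in control NS mice. The summed astrocyte CPM ranged from 6053 to 6459 in male mutant CVS, 5843 to 6946 in mutant NS, 6466 to 7046 in control CVS and 6512 to 7344 in control NS mice. In females the endothelial and pericyte sum ranged from 257.1 to 382.2 in mutant CVS, 319.1 to 359.2 in mutant NS, 295.4 to 418 in control CVS and 330.2 to 439.4 in control NS mice. The female astrocyte sum ranged from 6804 to 7478 in mutant CVS, 6519 to 7285 in mutant NS, 6296 to 7749 in control CVS and 7055 to 7908 in control NS mice. In both sexes the control NS group reached the highest sum in both lists. For immediate early genes this held in males only, as the highest female sum, 2934 CPM, was in mutant CVS mice. The part of these cells in the other results was not tested. Without the 3 libraries high in Cdhr1 the medians were 0.03 for astrocyte markers and 0.08 for endothelial and pericyte markers.

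Microglia markers had 10 positive terms of 16 (median 0.08), against 48.8% of all genes, with Ctss above and C1qa, a complement component, at 0.15 ± 0.0721. Blood markers had 5 of 5 (median 0.16), with an SE near the size of each term or above it, such as Hba-a2 at 0.44 ± 0.446, a globin with a near-identical copy. Meningeal fibroblast markers had 10 negative terms of 12 (median −0.09), with medians of 0.00 in males and −0.41 in females. Choroid plexus markers had 3 of 8 tested, and Ttr, their most abundant transcript elsewhere, had −1.43 ± 1.21.

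Somatostatin neuron markers, the cells in which Cre acts, had 9 positive and 7 negative terms with a median of 0.03. Tacr1, the substance P receptor of long-range somatostatin cells, had −0.70 ± 0.27 (adjusted p = 0.922), with −0.39 ± 0.391 in males and −1.02 ± 0.371 in females. In females it averaged 1.14 ± 0.348 CPM in mutant CVS, 1.81 ± 0.618 in mutant NS, 1.79 ± 0.744 in control CVS and 1.41 ± 0.241 in control NS mice. Cort, cortistatin, had 0.45 ± 0.252 and Etv1 had −0.15 ± 0.0686. Parvalbumin neuron markers had 6 positive terms of 11 (median 0.01), and VIP, CCK and Lamp5 neuron markers had 8 of 13 (median 0.01).

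Upper-layer glutamatergic markers had 8 positive terms of 11 (median 0.01) and deep-layer markers 9 of 14 (median 0.04), against 48.8% of all genes. Oligodendrocyte precursor markers had 7 of 13 (median 0.02), striatum markers 7 of 11 (median 0.06) and olfactory bulb markers 2 of 6 (median −0.16). No member of any of the 30 lists passed for the averaged interaction with all libraries in the fit.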

How the data were processed

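The authors sequenced poly(A) RNA of mouse medial prefrontal cortex with a stranded kit, paired-end, per the labels' protocols. The deposited values are raw counts per gene. Reads were processed with fastp 0.23.2, STAR 2.7.10b and featureCounts on GRCm39, per the submitters' processing notes, while neither the strand setting nor the annotation release is stated in those sources. The deposited count table held 57010 gene IDs, of which 22462 were at 0 in every library and 52029 had a symbol. No 2 libraries were identical, and each is taken as 1 animal from its title.

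Counts were filtered with filterByExpr (minimum count 10), scaled by TMM and tested with edgeR 4.0.16 in R 4.3.3, by the robust quasi-likelihood test over 8 groups. P-values were adjusted by Benjamini and Hochberg over all 17671 genes tested, at a threshold of 0.05. CPM values use TMM library sizes. The SE is the log2 fold change over the square root of F. The fit was tried on simulated counts with the same spread for every gene, no sex difference and no libraries set apart. This checks the computation and not how well the model describes these data. The alternatives were DESeq2 1.42.0, limma 3.58.1 voom, other scalings and filters, 1 surrogate variable (sva 3.50.0), other weights of the sexes, each sex alone, and fits without doubtful libraries or any 1 library. Named genes are the 10 positive and 10 negative with the smallest p in the averaged interaction, 3 each way within each sex, and list members. Predicted genes (Gm and a number, or Rik) and IDs with no symbol were counted in every test and passed over in this naming. The members, gene lists and tests were chosen with earlier results of these data known. The reference annotation is of another build than the counts, so no gene coordinates are given except for promoters, in their own build. The level of the targeted gene is not reported here.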

Additional observations from a re-analysis of the deposited data

Results flagged for a closer look

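In 84 groups of 4 to 10 libraries of the named genes, 4 had 1 library far from the others by Dixon's criterion, where chance gives about 5%. Rps26 was at 100 CPM in female control CVS replicate 4, against 89.1 to 91.4 CPM in the other 4 libraries. Map3k7 was at 59 CPM in male control CVS replicate 3, against 53.5 to 55.4 CPM in the other 5. Cdhr1 was at 16 CPM in male control CVS replicate 1, against 1.74 to 3.7 CPM in the other 5. Nodal was at 0.537 CPM in male control NS replicate 1, against 0.194 to 0.288 CPM in the other 4.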

How the results depend on the processing

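No paired analysis was possible because the labels give no replicate numbers shared between groups. The averaged interaction gave 0 called genes under every setting except without the 3 libraries high in Cdhr1 (3 genes) and without the 4 libraries set apart (2 genes), a setting chosen after seeing the data. In the same 2 settings there were 6 and 5 calls in males, 3 and 3 for the sex difference, and 6 and 6 for stress in mutants. Stress in controls gave 16 calls with DESeq2, 1 with no filter and 5 without the 4 libraries. Leaving out any 1 library gave 0 to 1 calls in males (Cdhr1, −3.61, without male mutant NS replicate 1) and 0 to 1 for stress in controls. The cause was not tested. The 3 libraries were chosen by their Cdhr1 level, so a turned sign of Cdhr1 without them follows from the choice. Signs turned for Cdhr1 (0.00346), Sst (0.0159), Slc1a2 (−0.00507), Alas2 (−0.105), Slc17a6 (−0.00602) and Matn4 (−0.000743) without the 3 libraries. Without the 4 they turned for Cdhr1 (0.00214), Sst (0.0435), Slc1a2 (−0.0043), Alas2 (−0.146), Matn4 (−0.0112), Gad1 (0.0037) and Cnr1 (0.0144). Kl was 0.000712 with 1 surrogate variable, and Sst was 0.00134 without the library labelled male mutant CVS replicate 1. Without any 1 library in turn the term ran from −0.0542 to 0.00134 for Sst, −0.0264 to 0.0739 for Dbp, −0.0282 to 0.297 for Alas2, −0.423 to 0.0459 for Prlr, −0.216 to 0.121 for Kl and −0.311 to 0.657 for Trh. The adjusted p of these genes in the averaged interaction stayed above the threshold in every fit.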

Other observations

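The genes called only after libraries were left out had a pattern of their own, and they were chosen after their values were seen. Atp6v0c-ps2, a pseudogene of a proton pump subunit, was at 54.6 CPM in male mutant NS replicate 1 and 63.3 CPM in male control CVS replicate 1, against 0.837 to 2.34 CPM in the other 36 libraries. Its parent gene Atp6v0c was at 284 and 285 CPM in the same libraries, against 380 to 453 CPM elsewhere. Rnps1, a splicing factor, was at 78.1 and 84.1 CPM there, against 102 to 123 CPM elsewhere. Leaving out the 3 libraries high in Cdhr1 removes 1 of these 2 libraries and keeps the other as the only male mutant NS library. Near-identical copies make the counts of Atp6v0c and its pseudogene uncertain.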
